A study of Poecilia reticulata with 6 samples.

Results

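Enterocytes take up the products of fat digestion at their apical face, rebuild triacylglycerol in the endoplasmic reticulum, and pack it with cholesterol and apolipoproteins into lipoproteins that leave at the basal side. Fat that is not exported at once is held in cytosolic lipid droplets coated by perilipins. Fish intestine uses the same route, and apolipoprotein A-I and fatty acid binding proteins are among its most abundant transcripts. The genes of this route were followed here in the intestine of the guppy (*Poecilia reticulata*) at 3 salinities. They were taken by symbol, as the families apoa, apob, apoc, apoe, apoo, fabp (without fabp6), mtp and mttp, dgat, mogat, acsl, plin, slc27a, npc1l1, abca, abcg, soat, scarb1, lpl, lipc, cideb, agpat, gpat, lpin and sar1, and kept where at least 2 libraries reached 1 TPM, the scaled transcript abundance in which the data were given. Of 51 symbols that matched in a table of 10389 genes, 39 passed this minimum. Of these 39, 32 have a role in lipid handling. Another 6 share only letters with the families, namely apobec2b of the cytidine deaminase family and the G-patch domain genes gpatch3, gpatch4, gpatch8, gpatch11 and GPATCH2L. The last is APOO, which is named as an apolipoprotein and encodes a subunit of the mitochondrial MICOS complex. The genes mttp, fabp2, abcg5, sar1b and cideb were not analysed here.

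RNA was sequenced from the intestine of adult wild-type guppies in 6 libraries, 2 at each of 0‰, 18‰ and 35‰ salt, which the sample labels write as percent. All fish were kept at 28°C with 14 h of light and 10 h of dark, and salt was raised by 3‰ every 2 days until 35‰ was reached over 24 days, so salinity and time of exposure cannot be told apart. The labels give no sex, no number of fish per library and no stretch of the gut, and do not say that the 2 libraries of a salinity came from separate tanks, so p-values measure only the spread between libraries, which may be technical. Because TPM corrects for the length of a transcript, levels of different genes can be set side by side, but read depth cannot be recovered from it.

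Intestinal markers were present in every library, where the apical peptide transporter slc15a1b ranged from 446 to 1444 TPM and the intestinal cadherin cdh17 from 912 to 2236 TPM. In 0‰ replicate 1 the brush border genes anpepb, ANPEP, slc15a1b, cdh17 and alpi.2 summed to 2963 TPM, the lowest of the 6 libraries (3811 in 0‰ replicate 2, 5445 and 6182 at 18‰, 3113 and 5156 at 35‰). Of these, slc15a1b and cdh17 were lowest in that library. Anpepb (877.6 TPM), ANPEP (31 TPM) and alpi.2 (114 TPM) were lowest in 35‰ replicate 1. All 5 leukocyte markers found of 10 were highest in 0‰ replicate 1, with a sum of 747 TPM against 247 to 351 TPM in the other libraries. In 0‰ replicate 2 the liver genes (7 of 23 symbols found, in 8 genes) summed to 762 TPM against 41.4 to 76.9 TPM elsewhere. Ambp, a plasma protein gene, stood there at 186.2 TPM and at no more than 0.81 TPM elsewhere, while rbp4, the retinol carrier, stood there at 278.1 TPM and at 21 to 67.1 TPM elsewhere. All 8 were highest in that library. At 35‰ the 4 exocrine pancreas genes found of 18 summed to 10.3 and 94 TPM, against 2824 to 11114 TPM in the other libraries, and the 4 distal enterocyte genes found of 9 to 23.2 and 471 TPM, against 1694 to 2558 TPM. The bile acid carrier slc10a2, one of these, was listed at 0 in 35‰ replicate 1 alone. In 35‰ replicate 2 it stood at 429.3 TPM, most of the sum of that library. That was above both 0‰ values (225.6 and 175.9 TPM) and below both 18‰ values (705.7 and 613.1 TPM). In bulk tissue, fewer cells of a type and less RNA per cell cannot be told apart, and the part of these differences in the results below was not tested.

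The apolipoproteins carried most of the transcript of the whole group. Apoa1b, which encodes the main protein of high-density lipoprotein, and apoea, whose product binds lipoprotein receptors, ranked 3 and 4 by mean TPM among all 10389 genes. Apoa1b (ENSPREG00000007396) stood at 7262 and 19432 TPM in replicates 1 and 2 at 0‰, at 16536 and 14122 TPM at 18‰, and at 20929.8 and 14603 TPM at 35‰. Apoea (ENSPREG00000008893) stood at 7069.8 and 15743 TPM at 0‰, at 10949 and 12329.7 TPM at 18‰, and at 15319.7 and 10121 TPM at 35‰. For both genes the lowest library was 0‰ replicate 1, and every pair of salinities overlapped. Together they made up 86.9% to 90.3% of the summed TPM of the 32 lipid genes in each library. That sum was 16141 TPM in 0‰ replicate 1 and 38953 TPM in 0‰ replicate 2, 31219 and 30448 TPM at 18‰, and 40606 and 27765 TPM at 35‰, or 3.85% and 9.11% of all listed TPM at 0‰ and between 5.77% and 8.43% at the higher salinities. TPM is scaled to a fixed total per library, but the listed values summed to between 419412 and 481864 TPM, so part of the total belongs to genes not listed. The shares and ranks above hold for the listed genes only. The log2 fold changes of apoa1b, on the log2(TPM + 1) scale, were 0.36 (standard error 0.46) in 18‰ versus 0‰ and 0.56 (0.46) in 35‰ versus 0‰. Without 0‰ replicate 1 they were −0.35 and −0.15. Those of apoea were 0.14 and 0.24 with all libraries and −0.44 and −0.34 without 0‰ replicate 1, and leaving out 35‰ replicate 1 also turned the second, to −0.06. For 35‰ versus 18‰ the values were 0.19 for apoa1b and 0.10 for apoea, and they turned to −0.07 and −0.20 without 35‰ replicate 1.

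**Figure D1:**
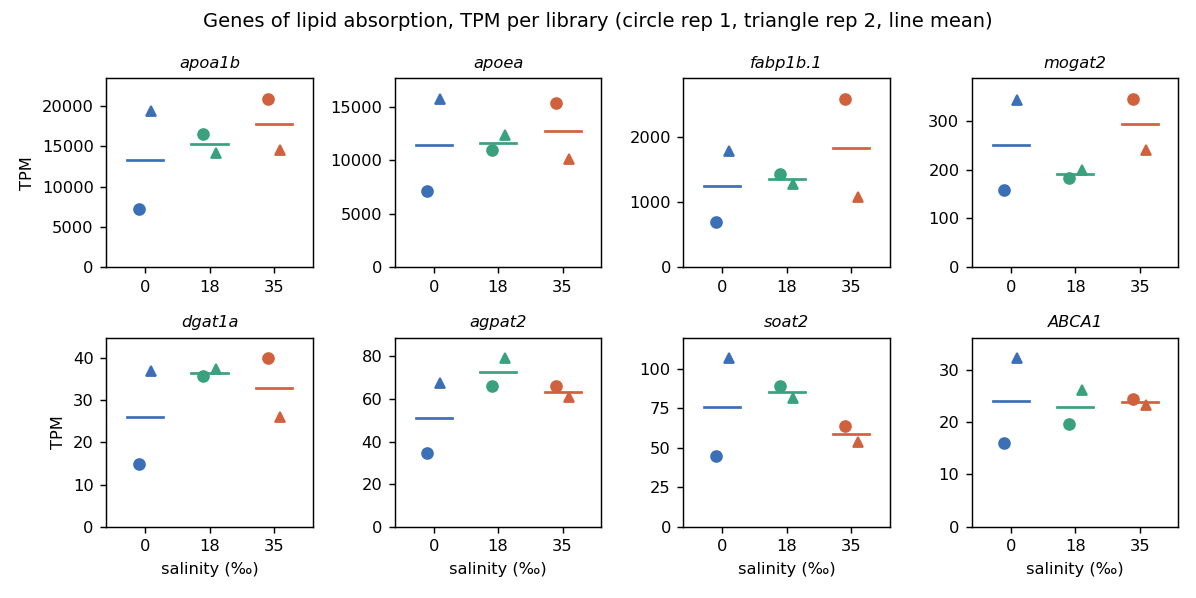
TPM of 8 genes of lipid absorption (y axis, from 0) by salinity in ‰ (x axis), with a circle for replicate 1, a triangle for replicate 2 and a line for the mean of 2 libraries. In each of the 8 panels 0‰ replicate 1 is the lowest point, and 0‰ replicate 2 lies among the higher ones, with apoa1b at 7262 and 19432 TPM. The 8 are a selection, and of all 32 lipid genes 16 have their lowest value in 0‰ replicate 1.

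Apobb.2 (ENSPREG00000006694) encodes apolipoprotein B, the structural protein of chylomicrons and very low-density lipoprotein. Its TPM was 0.34 and 205.5 at 0‰, 0.49 and 17.9 at 18‰, and 10.7 and 2.08 at 35‰. One library therefore held most of its transcript, and it was the library with the liver signal. Where apobb.2 stood at 17.9 TPM (18‰ replicate 2) and 10.7 TPM (35‰ replicate 1), the liver genes summed to 73.1 and 62.1 TPM. A link between apobb.2 and the liver signal was not tested. The SD at 0‰, 145.1 TPM, was larger than the mean of 102.9 TPM, and no direction with salinity could be read. Of the genes below the minimum, fabp7a, lipca, abcg4a and gpat2 (the last at no more than 0.04 TPM) peaked in 0‰ replicate 2. Others, such as abca12, peaked elsewhere. Fabp7a, a fatty acid binding protein, stood at 21.5 TPM in 0‰ replicate 2 and at no more than 0.07 TPM elsewhere. Lipca, the hepatic lipase, stood at 10.2 TPM there and was listed at 0 in the other 5 libraries.

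The difference between the 0‰ replicates ran through most of the lipid genes. At 0‰, 26 of 32 were higher in replicate 2, and 17 of them (53.1%) by over 1.5-fold on the log2(TPM + 1) scale, against 13.6% of the 7897 genes that reached the same minimum of TPM. Lower by that fold were 3 (9.38%, against 11.6% of all genes). The median log2 difference, replicate 2 minus replicate 1, was 0.73 for the lipid genes and 0.04 for all genes. At 18‰ 3 of the 32 were higher by over 1.5-fold in replicate 2 and 1 was lower (9.38% and 3.12%, against 5.14% and 6.29% of all genes), with a median of 0.05. At 35‰ the split went the other way for part of the genes, with 4 higher and 8 lower in replicate 2 (12.5% and 25%, against 19.7% and 7.71% of all genes) and a median of −0.03. The lowest of the 6 values lay in 0‰ replicate 1 for 16 of the 32 lipid genes, while 23.1% of all genes had their lowest value there. These figures describe single libraries, and no test was made of them.

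**Figure D2:**
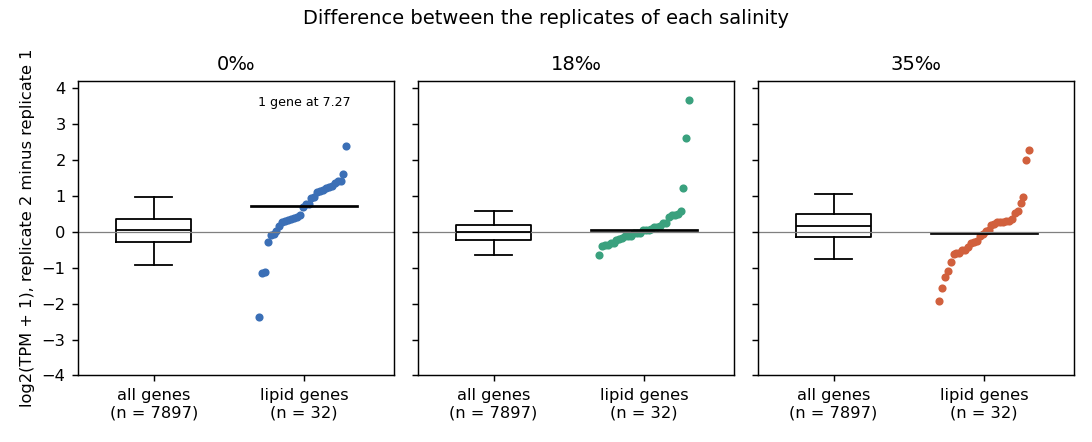
Difference in log2(TPM + 1) between replicate 2 and replicate 1 (y axis) at each salinity, as a box for all 7897 genes (quartiles, whiskers at the 5th and 95th percentiles) and as points for the 32 lipid genes, with a line at their median. The lipid genes at 0‰ are shifted upward, with a median of 0.73, and apobb.2 lies off the scale at 7.27.

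**Figure D3:**
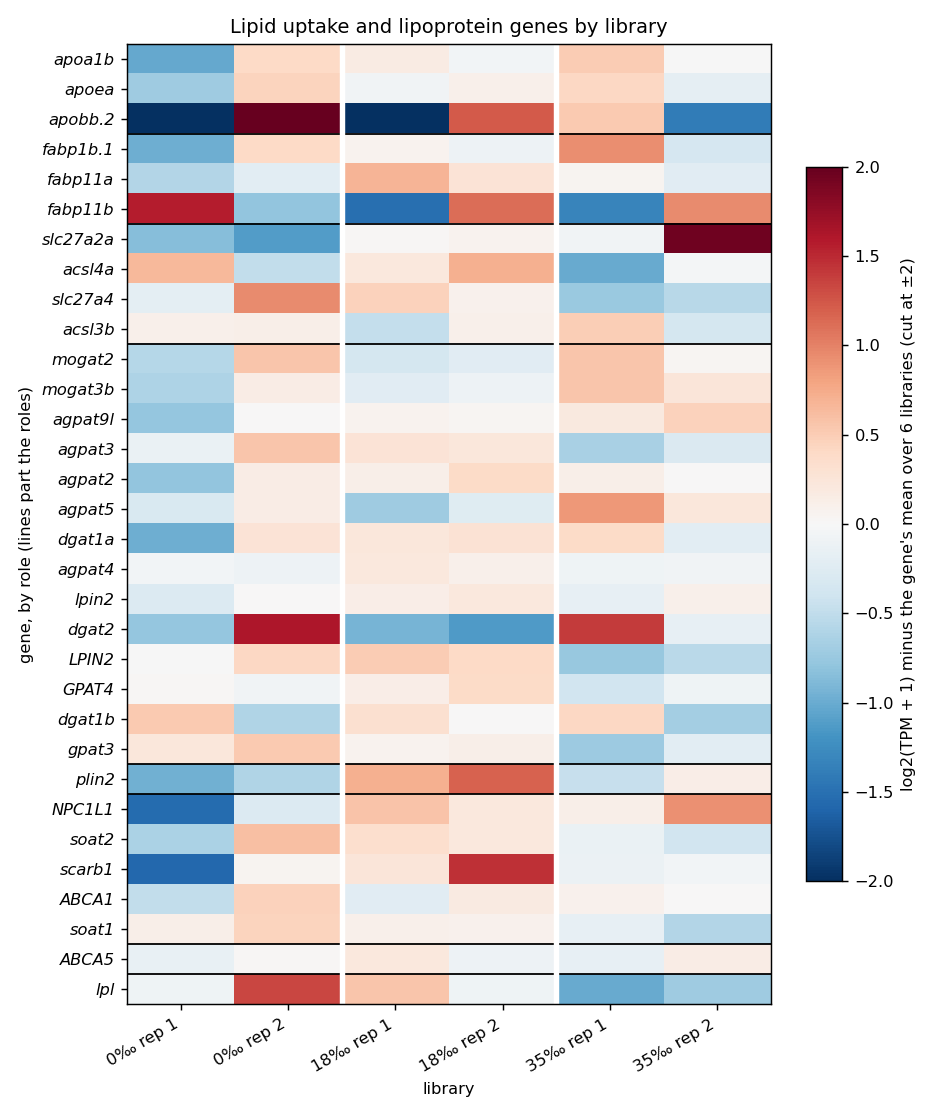
Each of the 32 lipid genes (rows, grouped by role) in each of the 6 libraries (columns), coloured by log2(TPM + 1) minus the mean of the gene, from blue (lower) to red (higher). The column of 0‰ replicate 1 is blue for most rows, and plin2 has its deepest red in the columns of 18‰.

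Among the members with an unadjusted p under 0.05 between salinities was plin2, a coat protein of lipid droplets, which was highest in both 18‰ libraries. Also among them were NPC1L1 for cholesterol uptake and slc27a2a for fatty acid uptake, which were higher in all 4 libraries with salt. For slc27a2a that p was reached in 35‰ versus 0‰ only. Lpl, slc27a4 and LPIN2, among them too, were lowest at 35‰. Of all genes, 24.7% were higher without overlap in 18‰ than in 0‰, and 18.9% in 35‰ than in 0‰. Lower without overlap at 35‰ were 20% of all genes against 0‰ and 29% against 18‰. No member passed the thresholds of an adjusted p under 0.05 and a fold change above 1.5. The test was limma's moderated test on all 7897 genes, with Benjamini-Hochberg adjustment. In 18‰ versus 0‰, 0 of 39 members were called, where 0.0127% of all genes were. The counts were 0 of 39 against 0.19% in 35‰ versus 0‰ and 0 of 39 against 0.317% in 35‰ versus 18‰. The smallest limma adjusted p was 0.376 for plin2 in 18‰ versus 0‰, 0.3 for slc27a2a in 35‰ versus 0‰ and 0.197 for LPIN2 in 35‰ versus 18‰. With 2 libraries a side, the smallest p that an exact permutation test (two-sided) can reach is 0.33.

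Without adjustment, 4 members (10.3%) had a p-value under 0.05 and a higher value in 18‰ than in 0‰, against 3.94% of all genes, and none had a lower value, against 1.99%. In 35‰ versus 0‰, 4 were higher (10.3%, against 5.01%) and 7 lower (17.9%, against 6.32%). These include gpatch8 (higher) and gpatch4 (lower), which have no lipid role, so that 3 and 6 of the 32 lipid genes are among them. In 35‰ versus 18‰, 1 was higher (2.56%, against 3.7%) and 4 were lower (10.3%, against 8.81%). In both directions together these were 4, 11 and 5 members (10.3%, 28.2% and 12.8%), against 5.93%, 11.3% and 12.5% of all genes. The values that follow belong to these genes and to the most abundant ones, by role.

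**Figure D4:**
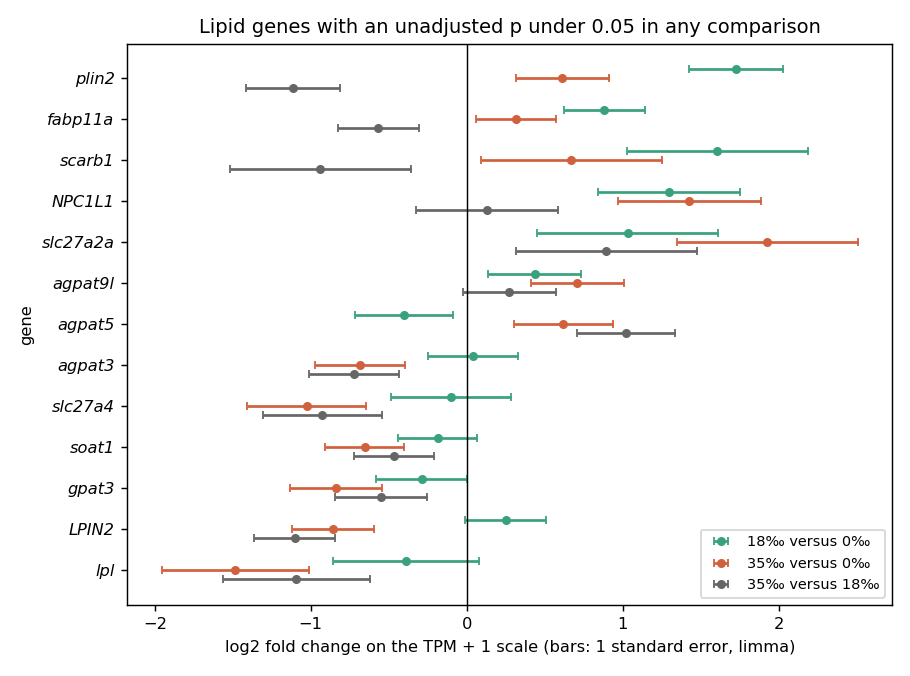
Log2 fold change (x axis, on the TPM + 1 scale) of the 13 lipid genes with an unadjusted p under 0.05 in any comparison, with bars of 1 standard error from limma. Green is 18‰ versus 0‰, orange 35‰ versus 0‰ and grey 35‰ versus 18‰, which share libraries pairwise. Slc27a2a in 35‰ versus 0‰ lies furthest right, at 1.93, plin2 in 18‰ versus 0‰ next, at 1.73, and lpl in 35‰ versus 0‰ furthest left, at −1.48.

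Fatty acid binding proteins carry fatty acids through the cytosol. Fabp1b.1 (ENSPREG00000015304), of the liver type that is also made in the intestine, was the most abundant member after apoa1b and apoea. It stood at 690.7 and 1788 TPM at 0‰, at 1431 and 1269 TPM at 18‰, and at 2586 and 1075 TPM at 35‰. The replicates were 2.59-fold apart at 0‰ and the salinities overlapped. Its log2 fold change of 0.58 in 35‰ versus 0‰ (standard error 0.54, limma adjusted p = 0.722) was −0.10 without 0‰ replicate 1 and −0.05 without 35‰ replicate 1, and those of the other comparisons were 0.28 (18‰ versus 0‰) and 0.31 (35‰ versus 18‰). Fabp11a (ENSPREG00000008137), of a type found in fishes, stood at 111.6 and 145.7 TPM at 0‰, at 271.9 and 204.9 TPM at 18‰, and at 175.3 and 144.3 TPM at 35‰. It was thus higher in both 18‰ libraries than in the other 4, with a log2 fold change of 0.88 in 18‰ versus 0‰ (standard error 0.26, limma adjusted p = 0.642), −0.57 in 35‰ versus 18‰ and 0.32 in 35‰ versus 0‰ (limma adjusted p = 0.42 and 0.684). Fabp11b, its paralog, ranged from 0.49 to 11.5 TPM, and its replicates differed at every salinity.

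Fatty acid transport proteins take up long-chain fatty acids and activate them to acyl-CoA, and the values of the measured members, slc27a2a and slc27a4, lay on opposite sides of the 0‰ values at 35‰. Slc27a2a (ENSPREG00000018896) stood at 17.2 and 14.1 TPM at 0‰, at 32.3 and 33.5 TPM at 18‰, and at 30.4 and 125.6 TPM at 35‰. The libraries with salt were all above the 0‰ libraries, and 35‰ replicate 2 stood apart. A log2 fold change of 1.93 resulted for 35‰ versus 0‰ (standard error 0.58, limma adjusted p = 0.3), and of 0.92 without 35‰ replicate 2. For 18‰ versus 0‰ slc27a2a gave 1.03 (limma adjusted p = 0.944). Slc27a4 (ENSPREG00000008280), a main member of the family in the small intestine of mice, stood at 29.3 and 65.8 TPM at 0‰, at 46.9 and 35.9 TPM at 18‰, and at 19.6 and 22.7 TPM at 35‰. Both 35‰ libraries were below the other 4. For slc27a4 the log2 fold change of −1.03 in 35‰ versus 0‰ (standard error 0.38, limma adjusted p = 0.382) was −0.46 without 0‰ replicate 2, and the value in 35‰ versus 18‰ was −0.93 (limma adjusted p = 0.392). The acyl-CoA synthetases activate fatty acids inside the cell. Acsl4a stood at 53.5 and 23.8 TPM at 0‰, at 39.4 and 56 TPM at 18‰, and at 16.3 and 32.9 TPM at 35‰, where the 35‰ libraries lay below the 18‰ libraries (log2 fold change −0.98, limma adjusted p = 0.435). Acsl3b ranged from 6.51 to 13.8 TPM.

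Triacylglycerol synthesis was measured through 14 genes. The acyltransferases of the monoacylglycerol pathway, which enterocytes use to rebuild dietary fat, were the most abundant. Mogat2 (ENSPREG00000009847) stood at 158 and 344 TPM at 0‰, at 183.2 and 199.8 TPM at 18‰, and at 345.9 and 241.3 TPM at 35‰. Both 35‰ libraries lay above the 18‰ libraries (log2 fold change 0.59, standard error 0.39, limma adjusted p = 0.56), while the 0‰ libraries spanned nearly the whole range (−0.28 in 18‰ versus 0‰ and 0.31 in 35‰ versus 0‰). Mogat3b (ENSPREG00000022328) stood at 65.6 and 112.7 TPM at 0‰, at 86.6 and 94.5 TPM at 18‰, and at 149.4 and 120.1 TPM at 35‰. It was highest in the 35‰ libraries, with a log2 fold change of 0.63 in 35‰ versus 0‰ (standard error 0.30, limma adjusted p = 0.479), 0.56 in 35‰ versus 18‰ (limma adjusted p = 0.479) and 0.07 in 18‰ versus 0‰. Without 0‰ replicate 1 the first of these was 0.25. Dgat1a, which adds the last acyl chain, stood at 14.9 and 36.9 TPM at 0‰, at 35.7 and 37.2 TPM at 18‰, and at 39.9 and 26 TPM at 35‰, so that 0‰ replicate 1 was the only library under 26 TPM. Its paralog dgat1b ranged from 0.67 to 2.81 TPM. Dgat2 (ENSPREG00000009863), of another enzyme family for that step, stood at 3.82 and 24.3 TPM at 0‰, at 3.36 and 2.76 TPM at 18‰, and at 20.8 and 6.38 TPM at 35‰. Both 18‰ libraries were below all others, although by little against 0‰ replicate 1, and the replicates of 0‰ and 35‰ were far apart. Dgat2 gave log2 fold changes of −1.45 in 18‰ versus 0‰ and 1.65 in 35‰ versus 18‰ (standard error 0.80 in both, limma adjusted p = 0.942 and 0.445).

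The enzymes of the glycerol phosphate pathway did not share a direction between salinities. Agpat genes encode acyltransferases for lysophosphatidic acid, and agpat9l carries an older name of glycerol phosphate acyltransferase 3. Agpat9l (ENSPREG00000010141) stood at 41.4 and 71.7 TPM at 0‰, at 75.2 and 73 TPM at 18‰, and at 81.7 and 98.6 TPM at 35‰. Its groups did not overlap in any comparison, although the gap between 71.7 and 73 TPM was small. The log2 fold change in 35‰ versus 0‰ was 0.71 (standard error 0.30, limma adjusted p = 0.438), and 0.32 without 0‰ replicate 1. Agpat5 (ENSPREG00000022065) stood at 24.9 and 34.5 TPM at 0‰, at 18.5 and 26 TPM at 18‰, and at 57 and 36.5 TPM at 35‰. It was the one member with an unadjusted p under 0.05 and a higher value in 35‰ versus 18‰ (log2 fold change 1.02, standard error 0.32, limma adjusted p = 0.28). It gave 0.62 in 35‰ versus 0‰ (limma adjusted p = 0.497), and 0.31 without 35‰ replicate 1. Agpat3 (ENSPREG00000014169) stood at 62.8 and 102.2 TPM at 0‰, at 83.9 and 81.2 TPM at 18‰, and at 43.8 and 56 TPM at 35‰, the lowest pair. Against 0‰ the 35‰ libraries gave a log2 fold change of −0.68 for agpat3 and against 18‰ one of −0.72 (standard error 0.29 in both, limma adjusted p = 0.44 and 0.381). The former was −0.34 without 0‰ replicate 2. Agpat2 stood at 34.6 and 67.5 TPM at 0‰ and between 61 and 79.1 TPM in the other 4 libraries.

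Both genes for lipin 2, a phosphatidate phosphatase, were measured, and their levels differed. The TPM of LPIN2 (ENSPREG00000007247) was 3.02 and 4.39 at 0‰, 4.74 and 4.33 at 18‰, and 1.39 and 1.77 at 35‰. It had the smallest p-value of all members in 35‰ versus 18‰ (log2 fold change −1.10, standard error 0.26, limma unadjusted p = 0.00402, adjusted p = 0.197), and its 35‰ libraries were below the rest. Against 0‰ the 35‰ value of LPIN2 was −0.86 (limma adjusted p = 0.312). The TPM of lpin2 (ENSPREG00000015697) ranged from 10.2 to 14.6 over the 6 libraries. Gpat3 (ENSPREG00000012518), at 1.92 and 2.57 TPM at 0‰, 1.6 and 1.69 TPM at 18‰, and 0.51 and 1.16 TPM at 35‰, was low throughout and lowest at 35‰ (log2 fold change −0.84 in 35‰ versus 0‰, limma adjusted p = 0.363). GPAT4 ranged from 2.03 to 4.19 TPM and agpat4 from 14.9 to 18.9 TPM.

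In the lipid droplet, plin2 (ENSPREG00000019580), a perilipin of enterocytes and hepatocytes, had the smallest p-value of all members in 18‰ versus 0‰. Its TPM was 321.5 and 412.7 at 0‰, 1022.5 and 1427 at 18‰, and 455.4 and 683.3 at 35‰. Both 18‰ libraries lay above all others, and both 35‰ libraries lay between the 18‰ and the 0‰ libraries. The mean was 367.1 ± 64.5 (SD, n = 2) at 0‰, 1225 ± 286.1 at 18‰ and 569.3 ± 161.1 at 35‰. At 18‰ versus 0‰ this gave a log2 fold change of 1.73 (standard error 0.30, a fold of 3.31, limma unadjusted p = 0.000699, adjusted p = 0.376), and 1.49 to 1.97 when 1 library at a time was left out. The value was −1.11 in 35‰ versus 18‰ (limma adjusted p = 0.238) and 0.61 in 35‰ versus 0‰ (limma adjusted p = 0.486).

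Of the sterol genes, NPC1L1 (ENSPREG00000010025), the apical transporter for dietary cholesterol, stood at 24.1 and 59.6 TPM at 0‰, at 107.8 and 83.6 TPM at 18‰, and at 78.8 and 137.2 TPM at 35‰. All 4 libraries with salt were above both 0‰ libraries. Log2 fold changes of 1.30 at 18‰ (standard error 0.46, limma adjusted p = 0.747) and 1.43 at 35‰ (limma adjusted p = 0.322) followed for NPC1L1 against 0‰, and without 0‰ replicate 1 these were 0.66 and 0.79. Scarb1 (ENSPREG00000014769), a receptor for high-density lipoprotein, stood at 8.68 and 28.7 TPM at 0‰, at 32.8 and 78.1 TPM at 18‰, and at 25.4 and 26.6 TPM at 35‰. The 18‰ libraries lay above both 0‰ libraries but were 2.38-fold apart. Scarb1 had a log2 fold change of 1.61 in 18‰ versus 0‰ (standard error 0.58, limma adjusted p = 0.75) that became 0.80 without 0‰ replicate 1 and 2.42 without 0‰ replicate 2, and one of −0.94 in 35‰ versus 18‰ (limma adjusted p = 0.537).

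Sterol acyltransferases esterify cholesterol for storage and export. Soat1 (ENSPREG00000018080) stood at 10.5 and 13.5 TPM at 0‰, at 10.5 and 10.3 TPM at 18‰, and at 8.53 and 6.1 TPM at 35‰. Its 35‰ libraries were below the rest, with a log2 fold change of −0.65 in 35‰ versus 0‰ (standard error 0.25, limma adjusted p = 0.402). Soat2 (ENSPREG00000007854), the form of enterocytes and hepatocytes in mammals, was more abundant, at 45.1 and 106.6 TPM at 0‰, 88.8 and 81.7 TPM at 18‰, and 64 and 53.8 TPM at 35‰, and its 0‰ libraries spanned all others. ABCA1 exports cholesterol to apolipoprotein A-I, and its mean levels differed by less than the spread of the 0‰ libraries, at 24.1 ± 11.4 TPM (SD, n = 2) for 0‰, 22.9 ± 4.7 for 18‰ and 23.8 ± 0.856 for 35‰. ABCA5, a lysosomal transporter of the ABCA family, ranged from 4.74 to 6.46 TPM over the libraries. Lpl (ENSPREG00000012534), the lipase that hydrolyses triacylglycerol of circulating lipoproteins, stood at 11.4 and 32.1 TPM at 0‰, at 18.3 and 11.4 TPM at 18‰, and at 5.58 and 7.02 TPM at 35‰. The 35‰ libraries were the lowest. For lpl the log2 fold change of −1.48 in 35‰ versus 0‰ (standard error 0.47, limma adjusted p = 0.321) was −0.78 without 0‰ replicate 2, and that in 35‰ versus 18‰ was −1.09 (limma adjusted p = 0.401).

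**Figure D5:**
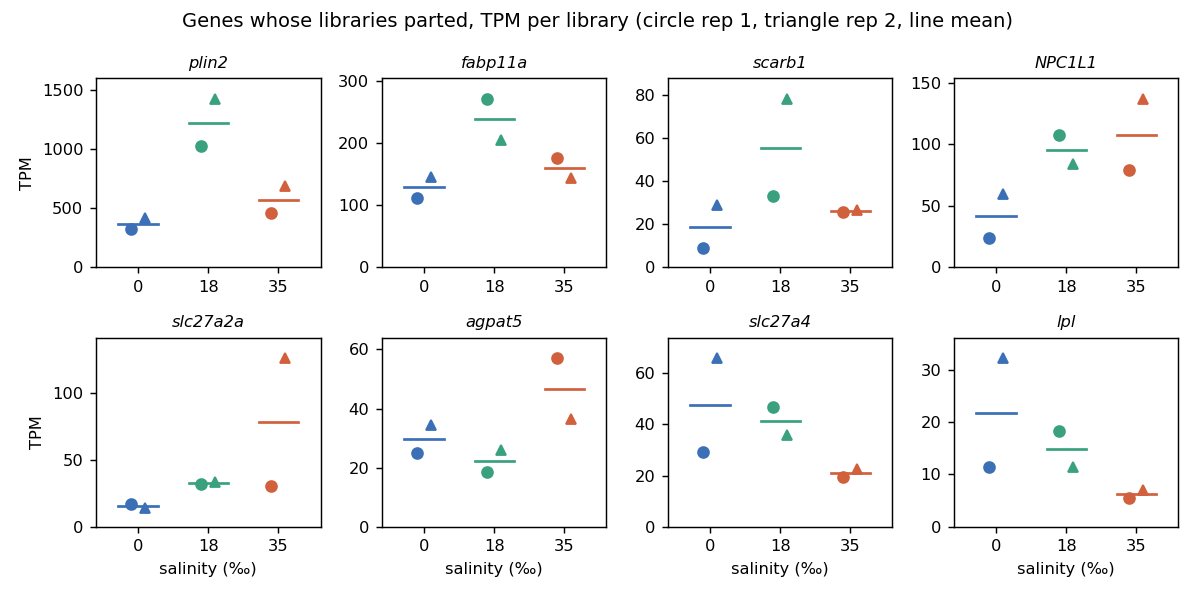
TPM of 8 lipid genes (y axis, from 0) by salinity in ‰ (x axis), with a circle for replicate 1, a triangle for replicate 2 and a line for the mean of 2 libraries. Plin2 and fabp11a are highest in both 18‰ libraries, NPC1L1 and slc27a2a are above both 0‰ libraries at 18‰ and 35‰, and slc27a4 and lpl are lowest at 35‰, with lpl at 5.58 and 7.02 TPM. The 8 are a selection, picked because their libraries parted between some salinities. Not all salinities part, as scarb1 overlaps between 35‰ and 0‰ and agpat5 between 18‰ and 0‰.

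Counted over all 39 members, 7 were higher by over 1.5-fold at 18‰ than at 0‰ (17.9%, against 7.74% of all genes) and 2 were lower (5.13%, against 5.23%). The 7 were plin2, slc27a2a, scarb1, dgat1a, NPC1L1, fabp11a and GPATCH2L, and the 2 were dgat2 and apobb.2. The libraries of 18‰ and 0‰ did not overlap for 10 members with higher values at 18‰ (25.6%, against 24.7%) and for 5 with lower values (12.8%, against 12.8%), shares near those of all genes. The median log2 fold change was 0.21 over the members and 0.06 over all genes. Without 0‰ replicate 1, 9 members were higher and 6 lower by over 1.5-fold, with a median of 0.03, and without 0‰ replicate 2, 14 were higher and 2 lower, with a median of 0.44.

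At 35‰ against 0‰ the members past 1.5-fold were split evenly. Of 39, 8 were higher (20.5%, against 8.21% of all genes) and 8 lower (20.5%, against 11.1%), and the median log2 fold change was 0.01, against −0.01 over all genes. The libraries did not overlap for 7 with higher values (17.9%, against 18.9%) and for 8 with lower values (20.5%, against 20%), again near all genes. Without 0‰ replicate 1, 3 members were higher and 10 lower by over 1.5-fold, with a median of −0.10, and without 0‰ replicate 2, 16 were higher and 8 lower, with a median of 0.37. Without 35‰ replicate 1, 11 members in place of 16 were past that fold. The balance of higher and lower members thus depended on which 0‰ library was used.

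The fold changes of 35‰ against 18‰ hold no value of the 0‰ libraries, which entered only the filter and the spread used in the test. By over 1.5-fold 4 members were higher at 35‰ (10.3%, against 6.45% of all genes) and 8 lower (20.5%, against 14.5%). Libraries without overlap were found for 6 members with higher values at 35‰ (15.4%, against 18.7%) and for 17 with lower values (43.6%, against 29%). The 17 were plin2, fabp11a, scarb1, slc27a4, acsl4a, lpl, agpat2, agpat3, agpat4, gpat3, GPAT4, lpin2, LPIN2, soat1, soat2, gpatch4 and GPATCH2L. The median log2 fold change was −0.17 over the members and −0.07 over all genes, and −0.24 to −0.15 over the members when 1 library at a time was left out.

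The 6 members that share only letters with the families, and APOO, were low. Their mean TPM ranged from 1.91 to 9.88. Of these, gpatch8 was higher in 35‰ than in 0‰ with 6.33 and 8.88 TPM at 0‰ and 13.8 and 11.5 TPM at 35‰, and gpatch4 was lower, with 2.86 and 3.17 TPM at 0‰ and 1.64 and 1.78 TPM at 35‰, with log2 fold changes of 0.68 and −0.57 (limma adjusted p = 0.387 and 0.438). GPATCH2L stood at 0.81 and 2.17 TPM at 0‰, at 3.16 and 2.5 TPM at 18‰, and at 1.71 and 1.14 TPM at 35‰, with both 18‰ libraries the highest (log2 fold change 0.67 in 18‰ versus 0‰ and −0.66 in 35‰ versus 18‰, limma adjusted p = 0.928 and 0.47). The other 4 had overlapping libraries in all 3 comparisons.

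Of the 51 matched symbols, 12 were below the minimum and were not tested. Those nearest to it were abca12, at 2.96 TPM in 35‰ replicate 1 and at most 0.68 TPM elsewhere, and abcg4a, at 1.53 TPM in 0‰ replicate 2 and at most 0.69 TPM elsewhere, beside fabp7a and lipca described above. Just inside it were dgat1b, fabp11b and apobb.2, which each reached 1 TPM in 4 libraries. The remaining 8 (abca4a, abca4b, acsl2, fabp10b, FABP7, gpat2, lpin1 and sar1ab) stayed under 1 TPM in every library, and fabp10b was listed at 0 in all 6.

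Other genes of the pathway that are not in these families were taken from a list of 71 symbols, of which 42 were found, in 45 genes, and 41 of these genes were tested. None was called in any comparison by limma, and 3 of 41 (7.32%) had an unadjusted p under 0.05 in each, against the 5.93%, 11.3% and 12.5% of all genes given above. Cel.2, a bile salt-activated lipase made by the exocrine pancreas, had the largest difference. It stood at 5569.6 and 2094 TPM at 0‰, at 2100.1 and 979.5 TPM at 18‰, and at 2.94 and 43 TPM at 35‰. Between 0‰ and 35‰ it fell by −8.02 in log2 units (standard error 1.07, limma adjusted p = 0.056). Cel.2 is 1 of the 4 exocrine pancreas genes summed above. The low pancreas signal at 35‰ thus includes its values and is not independent of them. Nr5a2, a nuclear receptor of liver and intestine, stood at 1 and 1.8 TPM at 0‰, at 7.45 and 4.79 TPM at 18‰, and at 3.27 and 3.43 TPM at 35‰. It was higher at 18‰ than in every other library (log2 fold change 1.56 in 18‰ versus 0‰, limma adjusted p = 0.413). Lmf1 was lower at 18‰, at 9.25 and 10.1 TPM, than at 0‰, at 17 and 14.4 TPM (log2 fold change −0.65, limma adjusted p = 0.789). Of the 10 lipid droplet and lipolysis genes tested, 6 had a positive and 4 a negative log2 fold change in 18‰ versus 0‰, with lipea, bscl2, ABHD5 and lpcat3 between −0.26 and −0.12. The lowest 18‰ value was above both 0‰ values for cidec, pnpla2, fitm2 and mgll, and the highest was below both for lipea. Among all genes, 24.7% were without overlap and higher at 18‰, and 12.8% were without overlap and lower. Cidec, also the only adipocyte marker found, whose product joins lipid droplets, stood at 20.9 and 42 TPM at 0‰, at 44.7 and 95.6 TPM at 18‰, and at 35.7 and 26.7 TPM at 35‰, and pnpla2, the lipase that hydrolyses droplet triacylglycerol, at 0.73 and 0.68 TPM, 1.61 and 1.59 TPM, and 0 and 0.02 TPM. Pnpla2 reached 1 TPM only at 18‰, so it passed the minimum through the group where it was high. Its lack of overlap and its p-values are therefore no support for a difference. It is also 1 of the 6 droplet and lipolysis genes with a positive log2 fold change in 18‰ versus 0‰. In 35‰ versus 0‰ and in 35‰ versus 18‰ it is 1 of the 3 genes with a p under 0.05 (limma unadjusted p = 0.0247 and 0.00133). Cidec and pnpla2 were chosen after their values were seen, and neither passed the threshold (limma adjusted p = 0.812 and 0.828 in 18‰ versus 0‰). The fatty acid scavenger receptor cd36 stood at 22.4 and 47.9 TPM at 0‰, at 45.9 and 66.5 TPM at 18‰, and at 35.3 and 22.5 TPM at 35‰. The lipoprotein assembly and vesicle genes SURF4, mia2, sec13, sec24d, sec31a, preb, tfg and pla2g12b, with tm6sf2 listed at 0 in all 6 libraries, summed to 214.1 TPM in 0‰ replicate 1 and to between 261.3 and 311.1 TPM in the other 5 libraries. Pla2g12b, sec24d and preb had their lowest value in 0‰ replicate 1, while SURF4, mia2, sec13, sec31a and tfg had theirs in other libraries.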

How the data were processed

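RNA from guppy intestine was measured in 6 libraries, 2 per salinity, grouped by the sample titles. The authors mapped paired-end reads of 100 bp with STAR to the guppy genome, estimated abundance with StringTie, and deposited TPM values. Versions, genome build and annotation are not given in the sources used here, and the depth is unknown, so precision rests on the 2 libraries per group. Values were used as deposited. The 7897 genes (of 10389) that reached 1 TPM in 2 or more libraries were tested as log2(TPM + 1) with limma 3.58.1 in R 4.3.3, in 1 fit of all 6 libraries with a mean-variance trend and 3 contrasts. Calls needed an adjusted p (Benjamini-Hochberg) under 0.05 and a fold change above 1.5, the cutoffs that the authors used with DESeq2, a count model that could not be used on TPM. The authors reported more genes with DESeq2 than were called here (1, 15 and 25 in the 3 comparisons). A gene not called here may thus be called in theirs. Fold changes on this scale understate those of low genes. Between 1006 and 1275 genes were listed at 0 per library, and these were used as 0. Figures were drawn with matplotlib 3.10.9 in Python 3.11.15.

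The members and lists were chosen with earlier results of these data known. Named members were those called in any comparison, the 10 with the smallest p-value in each, the most abundant of each role, those with a mean TPM of at least 100, and a list by known role. Fold changes are given for named members with an unadjusted p under 0.05, with libraries that did not overlap and a fold over 1.5, or with that mean TPM. Other members are given by their range. Marker and pathway symbols were matched with paralog suffixes. The chitinases in the brush border list, chia.1 and chia.3, were left out of its sum after the values were seen, since they took most of it. With them the list summed to 25021 and 44242 TPM at 0‰, 34561 and 38414 TPM at 18‰, and 64489 and 54001 TPM at 35‰, highest at 35‰. One further gene of that list is not reported here. Muscle markers and the adipocyte marker cidec, the only ones found, had sums of 51.9 to 151.7 TPM and 20.9 to 95.6 TPM. Alternatives covered the pseudocount, filter, trend, scaling, replicate block, libraries in the fit, fold cutoff and each library left out. No sequence of a member was used.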

Additional observations from a re-analysis of the deposited data

How the results depend on the processing

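In every alternative run, 0 members were called in each of the 3 comparisons. The number of all genes called was 1, 15 and 25 in 18‰ versus 0‰, 35‰ versus 0‰ and 35‰ versus 18‰. It was 0 in the first with a pseudocount of 5, a mean TPM of at least 5, median-ratio scaling, the replicate block or only the 2 salinities compared, and 0 to 19 with a library left out (19 without 0‰ replicate 1). In the second it was 24 with a mean TPM of at least 5, 1 with no filter, and 3 to 85 with a library left out (3 without 35‰ replicate 1, 85 without 0‰ replicate 2). In the third it was 4 with no filter, 41 with only the 2 salinities compared, and 2 to 41 with a library left out (2 without 35‰ replicate 1, 41 without either 0‰ library). The library left alone at a salinity was assumed to vary like the others. Deviations of same-numbered replicates were hardly correlated (0.06, −0.04 and 0.05), which cannot show whether the samples were paired. No member was called without the replicate block, so it had no such call to remove, and it added none. With a pseudocount of 5, 9 members in place of 16 were past 1.5-fold in 35‰ versus 0‰. With a library left out, 9 to 16 were past 1.5-fold in 18‰ versus 0‰, and the median log2 fold change of the members lay between 0.032 and 0.44 there and between −0.10 and 0.37 in 35‰ versus 0‰. The latter was 0.24 with a mean TPM of at least 5. Of 96 fold changes of named genes, 41 changed sign when some library was left out. Among the 47 given in the text, 12 did so. In 18‰ versus 0‰ the ranges were −0.84 to 0.28 for mogat2, −0.31 to 0.46 for mogat3b, −0.35 to 1.07 for apoa1b, −0.44 to 0.72 for apoea and −0.41 to 0.96 for fabp1b.1. In 35‰ versus 0‰ they were −0.25 to 0.87 for mogat2, −0.15 to 1.27 for apoa1b, −0.34 to 0.82 for apoea and −0.10 to 1.27 for fabp1b.1. In 35‰ versus 18‰ they were −0.066 to 0.45 for apoa1b, −0.20 to 0.40 for apoea and −0.33 to 0.94 for fabp1b.1. With median-ratio scaling the value of mogat3b in 18‰ versus 0‰ was −0.012. The cause of these changes was not tested. Depth is unknown, and 2 libraries per salinity limit every comparison.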
